A study of Homo sapiens with 12 samples.

Results

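Replication-dependent histone genes encode the H1, H2A, H2B, H3 and H4 proteins that package newly copied DNA. They were followed here in the established human line HCT116, from a colorectal carcinoma, after removal of cystine. The members were all rows of the deposited count table whose symbol is H1-1 to H1-6 or follows the pattern H2AC, H2BC, H3C or H4C plus a number. This rule uses names alone and gave 66 genes of 60671 rows with a gene name: 6 H1, 16 H2A, 17 H2B, 13 H3 and 14 H4 genes. The deprived cells were washed and given DMEM with 0 mM cystine, 10% fetal bovine serum and antibiotics for 24 h or 48 h. The control cells stayed in full DMEM with the same serum share and antibiotics for the same times. A wash and new medium are described for the deprived cells alone, so that step and the loss of cystine cannot be told apart. Each of the 4 groups held 3 samples, all labelled wild type. Nothing in the labels says whether a group's 3 samples were separate cultures, so the p-values cover the spread among samples, which could be technical.

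Cells make most of these histones during S phase, when new nucleosomes are assembled behind the replication fork. Their mRNAs usually end in a short stem-loop in place of a poly(A) tail. SLBP binds this stem-loop and acts in the 3′ processing, translation and decay of the mRNA, and NPAT, a substrate of cyclin E and CDK2, drives transcription of the gene clusters. Some members also give polyadenylated transcripts that read past the stem-loop. Cystine, taken up by cells and reduced to cysteine, feeds protein and glutathione synthesis.

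The stem-loop is shown because it is the element that sets these mRNAs apart from other mRNAs. A search of GENCODE release 29 transcripts (GRCh38) for the 16-base element found it in 24 of the 64 members that have a transcript there, and in 0.0329% of all 206694 transcripts. Many of the transcript models end before the 3′ end of the mRNA, so a member without a match is not shown to lack it. The 4 versions found are printed 5′ to 3′ with the 4-base loop in capitals. The first stood in 15 members, among them H2AC6, H2AC18, H2AC19, H2BC18, H2BC21 and H3C10. The second stood in 4 (H2BC4, H2BC5, H2BC7 and H3C8), the third in 4 (H4C2, H4C5, H4C8 and H4C11), and the last in H2AC11.
most frequent: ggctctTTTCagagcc
with an A-ended loop: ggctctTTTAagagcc
of H4 genes: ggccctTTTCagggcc
of H2AC11: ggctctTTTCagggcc

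The 150 bases before the start of 5 members are shown because these genes are among the members with the highest counts or with opposite calls at the 2 times. They are from RefSeq (GRCh38.p14), read on the strand of each gene. The capitals mark 4 motifs searched on both strands: TATAAA (the TATA box), CCAAT, the octamer ATTTGCAT and the H1 box AAACACA. Matches on the other strand read ATTGG and ATGCAAAT, and overlapping matches run together.
H1-2, chr6:26056471-26056620, minus strand: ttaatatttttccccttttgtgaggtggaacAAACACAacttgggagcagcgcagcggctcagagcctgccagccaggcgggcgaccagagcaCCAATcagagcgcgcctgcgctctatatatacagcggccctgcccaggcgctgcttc
H2BC4, chr6:26123927-26124076, minus strand: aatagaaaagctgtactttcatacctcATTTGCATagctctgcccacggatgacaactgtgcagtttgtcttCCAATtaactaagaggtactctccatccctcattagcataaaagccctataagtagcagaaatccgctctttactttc
H2AC6, chr6:26124022-26124171, plus strand: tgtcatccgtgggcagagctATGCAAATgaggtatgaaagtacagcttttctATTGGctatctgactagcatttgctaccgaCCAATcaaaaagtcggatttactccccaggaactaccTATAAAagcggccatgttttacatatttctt
H2BC12, chr6:27146859-27147008, minus strand: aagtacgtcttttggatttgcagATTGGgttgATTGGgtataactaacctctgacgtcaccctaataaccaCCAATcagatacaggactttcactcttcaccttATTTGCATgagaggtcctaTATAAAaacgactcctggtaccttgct
H3C6, chr6:26224028-26224177, plus strand: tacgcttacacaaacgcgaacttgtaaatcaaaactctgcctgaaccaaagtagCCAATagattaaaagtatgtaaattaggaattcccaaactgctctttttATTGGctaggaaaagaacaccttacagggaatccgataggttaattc

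A promoter window of 300 bases, 250 before the start and 50 after it, was available for 61 members. CCAAT stood in 85.2% of these windows, against 35.7% of all 27305 promoters of the same length. TATAAA stood in 67.2% of the members' windows and in 12% of all promoters. The octamer stood in 42.6% of the members' windows, against 1.8% of all promoters. By class, it stood in 82.4% of H2B and 73.3% of H2A windows, in 9.09% of H3 windows and in 0 of the 6 H1 and 12 H4 windows. The only H3 window with it, that of H3C4, covers the same bases as the window of H2AC7. No separate H3 window thus held the octamer. The H1 box stood in all 6 H1 windows and in 5.76% of all promoters. H2BC4 and H2AC6, a divergent pair with 246 bases between their starts, share 1 octamer, which is printed in both sequences in opposite orientation. These matches describe letters in a window and were not tested as binding sites.

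The values are estimated counts per gene, deposited without normalization, with 19146108 to 24179533 per sample. CPM, used throughout, is a gene's estimated count scaled to the size of its library. The epithelial markers EPCAM, CDH1, KRT8, KRT18, KRT19 and CLDN7 were all detected in every group, with a summed level of 4960 to 5520 CPM in deprived cells and 3760 to 4530 CPM in control cells. Of 12 markers of leukocytes, fibroblasts and endothelium, PTPRC and CD3E were at 0 in every group. The summed level of these 12 was 17.1 to 24.1 CPM in deprived cells and 33.4 to 50.8 CPM in control cells, nearly all of it from COL1A1. The part of these differences in the results on histone genes was not tested.

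The histone members were a small part of each library. They held 0.0138% ± 0.000699 of counts in deprived cells at 24 h and 0.00894% ± 0.00022 in control cells at 24 h (SD, n = 3). At 48 h they held 0.00675% ± 0.000139 in deprived cells, against 0.00891% ± 0.000301 in control cells. The sources used here do not say whether RNA was selected by its poly(A) tail, so these are levels of what the libraries captured. Of the 66 members, 14 had 0 counts in all 12 samples, 21 were above 0 in all 12, and 35 never reached 10 counts in any sample. Only 27 had enough counts to be tested: 2 H1, 7 H2A, 8 H2B, 4 H3 and 6 H4 genes. The 39 members not tested summed to 182 counts over the 3 deprived samples at 24 h, against 103 over the 3 control samples at 24 h. At 48 h they summed to 39.6 counts in deprived cells and 114 in control cells.

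The filter that left 27 genes needs a level of about 0.45 CPM in enough samples to fill a group. H1-2, H2AC6, H2AC11, H2BC5, H2BC12, H2BC15, H2BC21, H3C6, H4C12, H4C14 and H4C15 were above this level in every sample of all 4 groups. Another 6 tested members were wholly above it in 1 group only. H1-4, H2AC17, H2BC17 and H4C8 passed in this way in deprived cells at 24 h, and H2AC20 and H4C9 in control cells at 48 h. For these 6 the group that let them pass is also a group compared, so their differences are partly set by the filter.

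Counts were concentrated in few genes. H2BC12 held 28.1% of all member counts, H2AC6 16%, H1-2 12.6%, H2BC5 7.6% and H3C6 6.31%, together 70.7%. Scaled by the gene length in the deposited table, H2BC12 stood at 54.6 CPM per kilobase on the mean of 12 samples and H1-2 at 16.5. H2BC5 at 9.29, H2AC6 at 9.23, H4C14 at 4.83, H2AC18 at 4.01, H4C12 at 3.95, H2AC19 at 3.22 and H3C6 at 2.27 CPM per kilobase followed. H2BC12, an H2B gene of the cluster on chromosome 6, was therefore the most abundant member on both scales.

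The summed level of all members was higher in deprived cells at 24 h and lower in them at 48 h, as were the H1, H2A and H2B sums. The sum of all members was 144, 145 and 133 CPM in the 3 deprived samples at 24 h, and 87.1, 87.2 and 85.3 CPM in the control samples at 24 h. At 48 h it was 64.9, 70.3 and 70.9 CPM in deprived samples, against 88.7, 93 and 85.7 CPM in control samples. The groups did not overlap at either time, with ratios of deprived over control of 1.62 at 24 h and 0.771 at 48 h. In bulk RNA, fewer cells in S phase and less histone mRNA per cell cannot be told apart.

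The H1 class, the linker histones that bind DNA between nucleosomes, had the ratios farthest from 1 of the 5 classes. Nearly all of its sum was 1 gene, H1-2, with means of 24.5 of 25.9 CPM in deprived cells and 8.66 of 9.23 CPM in control cells at 24 h. At 48 h these were 3.69 of 3.87 CPM and 11.4 of 11.9 CPM. H1-4, the other tested H1 gene, was called higher at 24 h and not called at 48 h (edgeR adjusted p = 0.0614). It passed the filter through deprived cells at 24 h alone, the higher group at that time. The H1 sum was 26.4, 26.8 and 24.6 CPM in deprived samples at 24 h, and 9.93, 9.6 and 8.15 CPM in control samples, a ratio of 2.81. At 48 h it was 4.05, 3.16 and 4.42 CPM in deprived samples, and 10.9, 12.9 and 12 CPM in control samples, a ratio of 0.325. The H2A sum averaged 31.4 ± 0.782 CPM in deprived cells and 21.8 ± 1.23 CPM in control cells at 24 h (SD, n = 3 here and below), and 18.7 ± 1.34 against 23.9 ± 0.958 CPM at 48 h. For H2B the sum was 62.4 ± 3.37 CPM in deprived cells and 37.2 ± 1.54 CPM in control cells at 24 h, and 30 ± 1.67 against 37.8 ± 1.72 CPM at 48 h. Neither H2A nor H2B overlapped between the media at either time.

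The H3 and H4 sums moved less. The H3 sum was 9.43 ± 1.18 CPM in deprived cells and 10.2 ± 0.74 CPM in control cells at 24 h, and 8.86 ± 0.127 against 8.63 ± 0.941 CPM at 48 h, with overlapping samples at both times. The H4 sum was 11.2 ± 1.58 CPM in deprived cells and 8.14 ± 0.422 CPM in control cells at 24 h, without overlap, and 7.26 ± 1.08 against 6.89 ± 0.277 CPM at 48 h, with overlap. H3C6 alone averaged 4.99 ± 0.205 CPM in deprived cells and 6.8 ± 0.675 CPM in control cells at 24 h, and 7.11 ± 0.794 against 5.48 ± 0.96 CPM at 48 h, the largest share of the H3 sum.

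**Figure D1:**
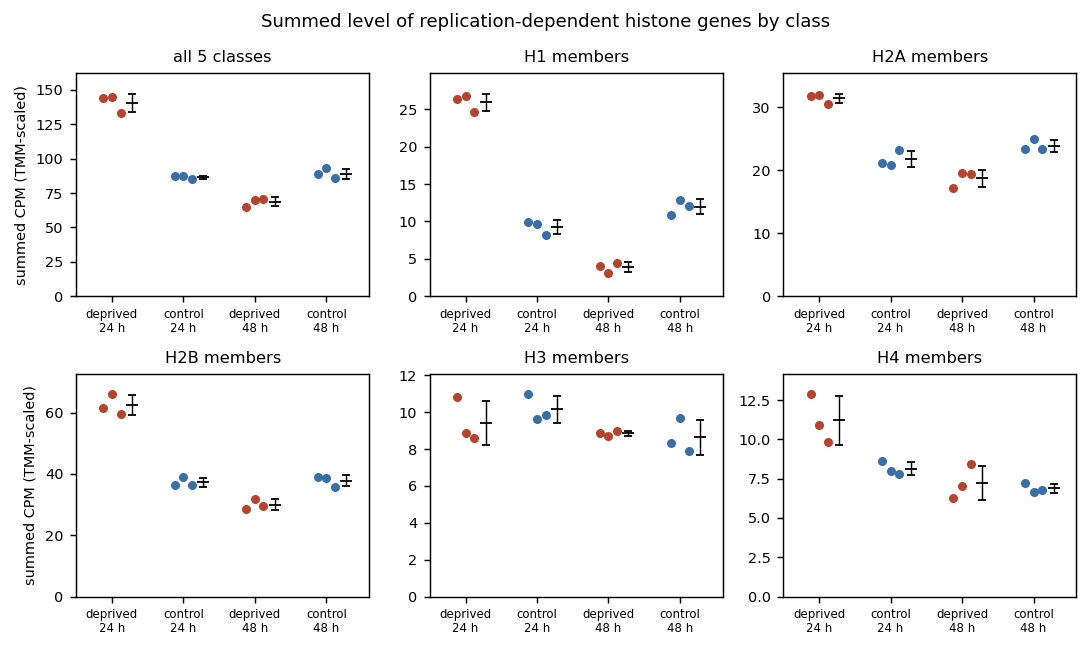
Summed level of the histone members of each class in every sample, in CPM on TMM-scaled library sizes (vertical axis, starting at 0), for deprived and control cells at 24 h and 48 h. Points are samples and bars the mean with the SD of 3 samples. The H1 sum lies at 24.6 to 26.8 CPM in deprived cells at 24 h and at 3.16 to 4.42 CPM in deprived cells at 48 h, while the H3 sums overlap between media at both times.

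At 24 h, 12 of the 27 tested members were higher in deprived cells and 1 was lower, at an adjusted p under 0.05 in edgeR's quasi-likelihood test over all 16994 tested genes. Over all genes tested, 55.6% were called at that time, 28.8% higher and 26.9% lower. The members called higher were H1-2, H1-4, H2AC6, H2AC19, H2BC4, H2BC11, H2BC12, H2BC17, H2BC18, H2BC21, H4C8 and H4C15, and the member called lower was H3C6. By class these were both tested H1 genes, 2 of 7 H2A, 6 of 8 H2B and 2 of 6 H4 genes. The median log2 fold change of the tested members was 0.61, against -0.01 over all genes tested. Among the 11 members above the filter's level in all groups, 5 were higher and 1 lower, with a median of 0.61. Without replicate 1 of the control cells at 24 h, 5 members were called higher and 0 lower, and without replicate 1 of the deprived cells at 24 h, 0 were called lower. H1-2, H2BC12, H2AC6 and H2BC4 kept their calls under every alternative run that tested them.

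H1-2, a linker histone gene on chromosome 6 (26055740 to 26056470, RefSeq, GRCh38), was at 25.1, 25.1 and 23.4 CPM in deprived samples at 24 h, and at 9.6, 8.83 and 7.54 CPM in control samples. All deprived samples were above all control samples, and the gene was 2.83-fold higher (edgeR adjusted p = 1.12e-09). H2BC12 was at 41.3, 44.1 and 39.2 CPM in deprived samples, against 25, 23.5 and 20.7 CPM in control samples. Its groups did not overlap either, with a 1.8-fold difference (log2 0.85 ± 0.09, SE here and below, adjusted p = 9.8e-08).

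H2BC4 and H2AC6, the divergent pair whose upstream bases are printed above, were both higher in deprived cells at 24 h. H2BC4, which encodes an H2B, was at 2.73, 2.55 and 2.01 CPM in deprived samples and at 0.615, 0.976 and 0.564 CPM in control samples, a 3.37-fold difference (edgeR adjusted p = 0.000349). H2AC6, which encodes an H2A, was at 19.4, 18.8 and 18.7 CPM in deprived samples and at 11.9, 11.8 and 13.7 CPM in control samples, a 1.52-fold difference (adjusted p = 8.96e-05). The samples of the 2 media did not overlap for either gene.

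The other rises at 24 h were in genes at a few CPM or below. H2BC21 was at 2.93, 2.85 and 3.43 CPM in deprived samples, and at 0.804, 1.8 and 1.74 CPM in control samples (2.13-fold, edgeR adjusted p = 0.0137). H2BC11 was at 1.12, 1.38 and 1.37 CPM in deprived samples, and at 0.473, 0.513 and 0.718 CPM in control samples (2.27-fold, adjusted p = 0.0127). H4C8 was at 0.536, 0.735 and 0.471 CPM in deprived samples, and at 0.236, 0.0513 and 0.103 CPM in control samples (4.25-fold, log2 2.09, adjusted p = 0.0157). Leaving out replicate 1 of the control cells at 24 h moved the log2 fold change of H4C8 to 2.83. All 3 had deprived samples wholly above control samples, and each lost its call without at least 1 of the samples. H4C8 passed the filter through deprived cells at 24 h alone, so its difference is partly set by the filter. Without replicate 1 of the control cells the adjusted p was 0.0603 for H2BC11 and 0.075 for H2BC21. H2BC18 was at 2.05, 1.77 and 1.84 CPM in deprived samples, and at 1.04, 1.08 and 1.08 CPM in control samples (1.77-fold, adjusted p = 0.0285), a call lost in 7 of 20 alternatives.

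H3C6, the H3 gene with the highest level in its class, was lower in deprived cells at 24 h. It was at 4.78, 5.19 and 5.01 CPM in deprived samples at 24 h and at 7.57, 6.52 and 6.31 CPM in control samples. The deprived samples were all below the control samples, by 1.36-fold (log2 -0.45 ± 0.15, edgeR adjusted p = 0.0161). Its call was lost without replicate 1 of either medium, with an adjusted p of up to 0.082. H2BC5, the H2B gene next to H1-4, was at 7.22, 8.13 and 8.05 CPM in deprived samples and at 6.57, 8.52 and 7.84 CPM in control samples, which overlapped, and it was not called (adjusted p = 0.855).

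At 48 h, 2 of 27 tested members were higher in deprived cells and 13 lower. Over all genes tested, 68.3% were called, 33.5% higher and 34.9% lower. The lower members were H1-2, H2AC11, H2AC14, H2AC17, H2AC18, H2AC20, H2BC4, H2BC5, H2BC17, H3C10, H4C5, H4C9 and H4C12, and the higher members were H3C6 and H4C14. The median log2 fold change was -0.92 for the tested members and -0.02 over all genes. Among the 11 members above the filter's level in all groups, 2 were higher and 4 lower, with a median of -0.18. The 4 lower of these 11 are about the 34.9% of all genes. None of the other tested members was above that level in every deprived sample at 48 h. Their lower calls at 48 h may thus be partly set by the filter. The count of higher members lay between 0 and 3 when single samples were left out. It was 0 without replicate 1 of the deprived cells or replicate 3 of the control cells at 48 h, and 1 without replicate 3 of the deprived cells or replicate 1 of the control cells.

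H1-2 fell to 3.87, 3.06 and 4.14 CPM in deprived samples at 48 h, against 10.4, 12.4 and 11.5 CPM in control samples. It was 3.09-fold lower without overlap (log2 -1.63 ± 0.13, edgeR adjusted p = 1.04e-09). H2BC5 was at 4.62, 4.69 and 5.05 CPM in deprived samples and at 9.29, 10.1 and 7.89 CPM in control samples, 1.9-fold lower (log2 -0.92 ± 0.13, adjusted p = 5.01e-06). H2AC11, which encodes an H2A and carries the stem-loop version found in no other member, was at 1.32, 1.16 and 0.546 CPM in deprived samples and at 3.62, 2.79 and 3.76 CPM in control samples, 3.34-fold lower (adjusted p = 8.46e-06). For each of these genes every deprived sample was below every control sample.

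Members at about 1 CPM or below were also lower in deprived cells at 48 h. H3C10, an H3 gene, was at 0.088, 0.464 and 0.364 CPM in deprived samples and at 1.11, 1.69 and 1.24 CPM in control samples (4.37-fold lower, edgeR adjusted p = 0.00035). H4C9 was at 0.176, 0 and 0.0455 CPM in deprived samples and at 0.724, 0.503 and 0.872 CPM in control samples (8.71-fold lower, adjusted p = 0.000347). Its log2 fold change of -3.12 moved to -4.61 without replicate 1 of the deprived cells at 48 h. H4C9 passed the filter through control cells at 48 h alone, so its difference is partly set by the filter. H2BC4 was at 0.132, 0.325 and 0.319 CPM in deprived samples, against 0.469, 1.01 and 0.734 CPM in control samples (2.81-fold lower, adjusted p = 0.00666).

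H2AC20, an H2A gene of the chromosome 1 cluster, had 0 counts in all 3 deprived samples at 48 h and 36 counts over the 3 control samples, where it was at 0.469, 0.548 and 0.597 CPM. Against a floor of 3 counts over the group it was at least 11.8-fold lower in deprived cells (edgeR adjusted p = 0.000183). H2AC20 passed the filter through control cells at 48 h alone, the higher group here, so this difference is partly set by the filter. H2BC17, an H2B gene, was at 0.044, 0 and 0.0455 CPM in deprived samples and at 0.256, 0.229 and 0.138 CPM in control samples, lower by 2.57 ± 0.84 on the log2 scale with an adjusted p of 0.0107. At 24 h H2BC17 was at 0.683, 1.08 and 0.642 CPM in deprived samples and at 0.284, 0.462 and 0.256 CPM in control samples, 2.39-fold higher without overlap (edgeR adjusted p = 0.0294), a call lost in 5 of 20 alternatives. H2BC17 passed the filter through deprived cells at 24 h alone, so its difference at 24 h is partly set by the filter. At 48 h its deprived samples held single counts, so the size of the fall is loosely set.

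Some members called higher at 24 h were not called at 48 h. H2BC12 was at 18.8, 23 and 19.4 CPM in deprived samples and at 24.3, 22.7 and 22.1 CPM in control samples, which overlapped (log2 -0.18 ± 0.09, edgeR adjusted p = 0.0865). H2AC6 was at 14.2, 16.1 and 17.2 CPM in deprived samples and at 12.3, 16.6 and 14.1 CPM in control samples, which overlapped too (log2 0.14 ± 0.11, adjusted p = 0.237). H2BC21 was at 1.28, 0.464 and 1.87 CPM in deprived samples and at 1.45, 1.83 and 1.93 CPM in control samples (adjusted p = 0.223). H3C6 was higher in deprived cells, with 7.84, 6.26 and 7.24 CPM, against 5.62, 6.35 and 4.45 CPM in control cells. Its samples overlapped, the difference was 1.3-fold (adjusted p = 0.0282), and the call was lost in 4 of 21 alternatives, with an adjusted p of up to 0.148.

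**Figure D2:**
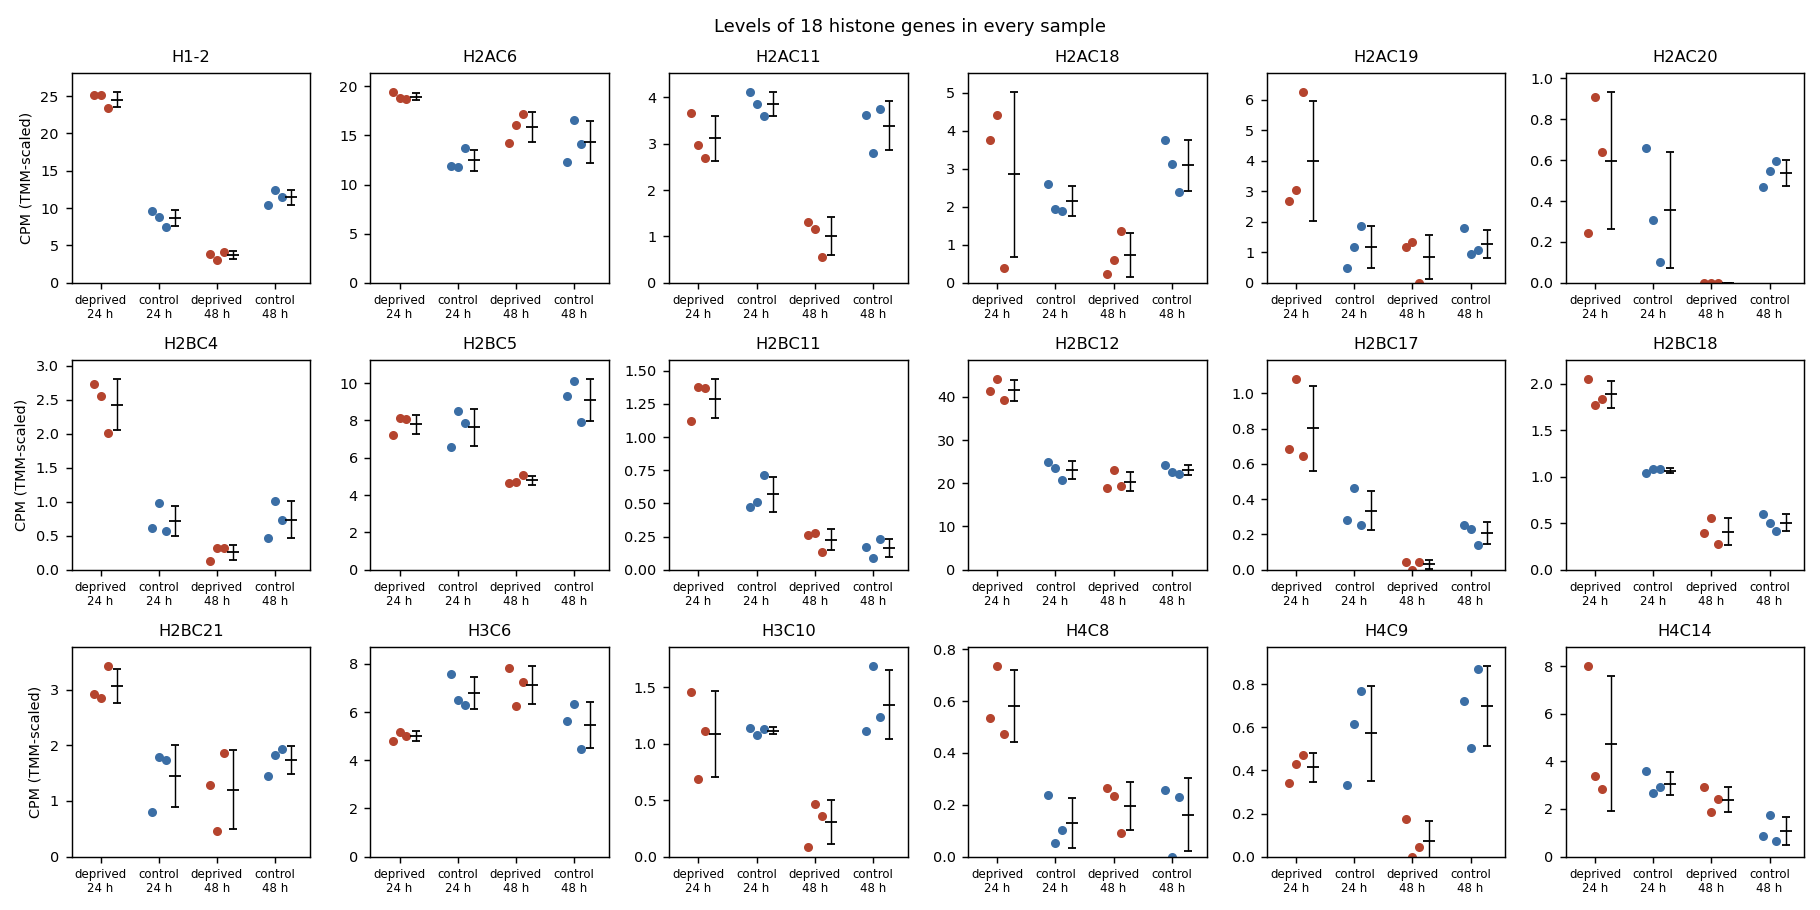
Level of the 18 named histone members in every sample, in CPM on TMM-scaled library sizes (vertical axes start at 0 and differ between panels), for deprived and control cells at 24 h and 48 h. Points are samples and bars the mean with the SD of 3 samples. H1-2, H2BC4 and H2BC17 lie above control at 24 h and below it at 48 h, and H2AC20 is at 0 in the 3 deprived samples at 48 h.

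**Figure D3:**
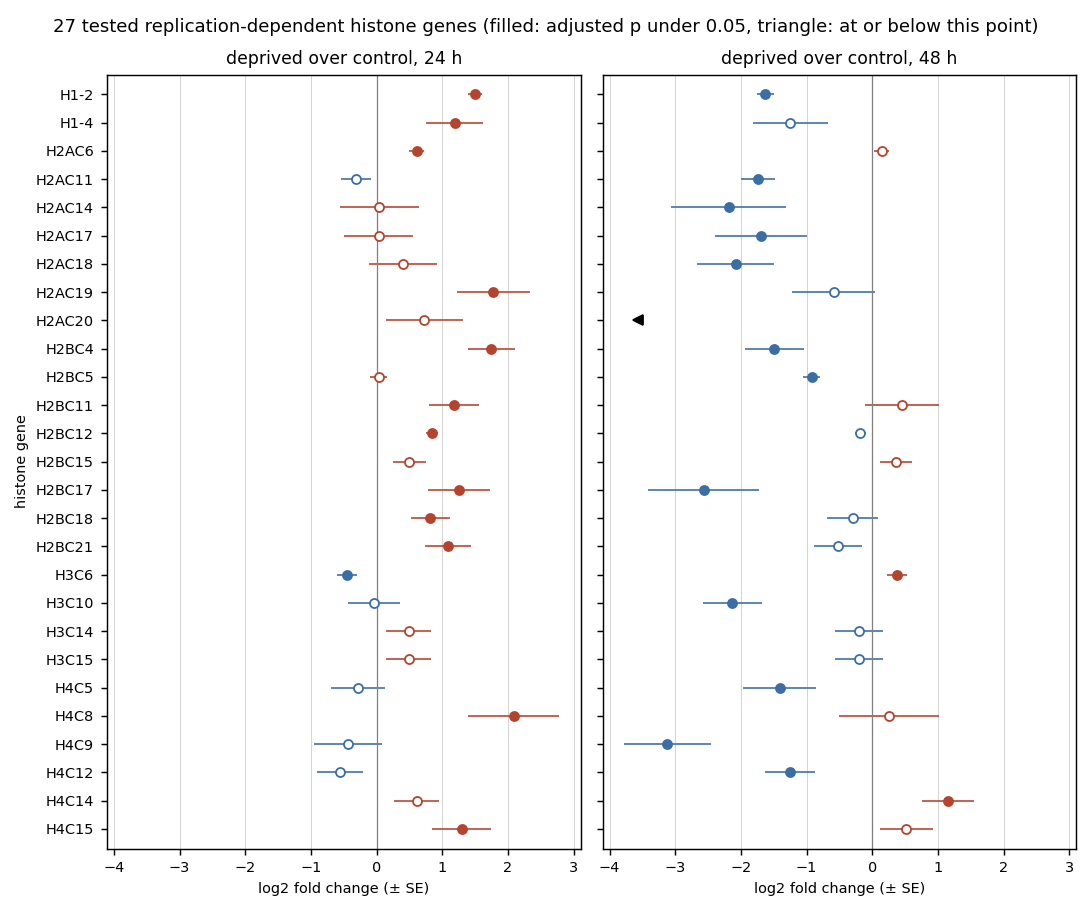
Log2 fold change of deprived over control cells (horizontal axis, with SE as bars) for the 27 tested members at 24 h and 48 h, with filled points for members past the adjusted threshold. The triangle for H2AC20 marks its bound of at least 11.8-fold lower. Filled points lie to the right at 24 h, except H3C6, and to the left at 48 h, except H3C6 and H4C14.

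The effect of deprivation differed between the times for 15 of the 27 tested members. In the test of the difference itself, 14 members had a lower effect at 48 h than at 24 h and 1, H3C6, a higher one. Over all genes tested, 35.6% were called in this test, 19.2% lower and 16.4% higher. The median difference was -1.43 on the log2 scale for the tested members and -0.01 over all genes. Among the 11 members above the filter's level in all groups, 6 had a lower effect at 48 h and 1 a higher one, with a median of -0.79. It was -3.13 ± 0.17 for H1-2 (edgeR adjusted p = 2.77e-11), -3.24 ± 0.57 for H2BC4 (0.000207), -1.03 ± 0.12 for H2BC12 (2.96e-06) and -0.95 ± 0.19 for H2BC5 (0.000531). For H3C6 it was 0.82 ± 0.21, with an adjusted p of 0.00453. H1-2, H2BC4 and H2BC17 were the members called higher at 24 h and lower at 48 h, and H3C6 the one called lower at 24 h and higher at 48 h.

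Deprived cells at 48 h had less of most tested members than deprived cells at 24 h. Of 27 tested members, 22 were lower and 1 was higher, beside 42.5% of all genes tested (21.8% lower, 20.7% higher). Among the 11 members above the filter's level in all groups, 7 were lower and 1 higher, with a median log2 fold change of -0.97. The median over all 27 was -1.82. H1-4, H2AC17, H2BC17 and H4C8 passed the filter through deprived cells at 24 h alone, the higher group here. With copies joined, 18 of 24 were lower, and with single samples left out 17 to 24 of 27. H1-2 was 6.62-fold lower at 48 h than at 24 h in deprived cells (edgeR adjusted p = 8.94e-13), H2BC4 9.26-fold lower (3.49e-06) and H2BC12 2.04-fold lower (1.41e-08). H2BC17 went from 14, 25 and 15 counts at 24 h to 1, 0 and 1 at 48 h, a fitted 22.5-fold (edgeR adjusted p = 3.19e-05). The fall of H2BC17 is partly set by the filter, and its size is loosely set. H2AC20 was at least 13.5-fold lower. H3C6 was 1.42-fold higher (adjusted p = 0.00881). The deprived samples at 24 h enter this comparison and that with control cells at 24 h, so these comparisons are not independent. H2AC6, lower by 0.26 ± 0.10 on the log2 scale, lay at the threshold and lost its call in 13 of 21 alternatives, with an adjusted p of 0.0264 to 0.192.

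Few members differed by the test between the times in control cells. At 48 h against 24 h, 1 of 27 tested members was higher and 3 were lower, beside 23% of all genes tested (12.7% higher, 10.4% lower). Scaling by library totals alone turned the split of all genes from 2151 higher and 1760 lower to 1697 higher and 2580 lower, and left the members' counts at 1 and 3. H1-2 was 1.32-fold higher in control cells at 48 h (edgeR adjusted p = 0.0161). H2BC11 was at 0.17, 0.0914 and 0.229 CPM in control cells at 48 h and at 0.473, 0.513 and 0.718 CPM at 24 h (3.38-fold lower, adjusted p = 0.0143). H2BC18 was at 0.596, 0.503 and 0.413 CPM in control cells at 48 h and at 1.04, 1.08 and 1.08 CPM at 24 h (2.09-fold lower, adjusted p = 0.032). Without replicate 2 of the control cells at 48 h, or without replicate 3 at 24 h, 0 members were called higher and 1 lower, and without replicate 3 at 48 h 1 was lower.

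Copies with near-identical sequence limit what single members show. H3C14 and H3C15 held the same value in every sample, since their reads were split evenly. H2AC18 and H2AC19, which share their sequence almost entirely, took turns: H2AC18 was at 3.75, 4.41 and 0.385 CPM in deprived samples at 24 h, while H2AC19 was at 2.68, 3.03 and 6.25 CPM there. In control samples at 24 h, H2AC18 was at 2.6, 1.95 and 1.9 CPM and H2AC19 at 0.473, 1.18 and 1.85 CPM. Their joined level was 6.44, 7.43 and 6.64 CPM in deprived samples and 3.07, 3.13 and 3.74 CPM in control samples at 24 h. At 48 h H2AC18 was at 0.22, 0.603 and 1.37 CPM in deprived samples and at 3.75, 3.11 and 2.39 CPM in control samples, and H2AC19 at 1.19, 1.35 and 0 CPM in deprived samples and at 1.79, 0.96 and 1.06 CPM in control samples. At that time the joined level was 1.41, 1.95 and 1.37 CPM in deprived samples and 5.53, 4.07 and 3.44 CPM in control samples. The joined pair was higher in deprived cells at 24 h (log2 1.04 ± 0.19, edgeR adjusted p = 0.000121) and lower at 48 h (log2 -1.47 ± 0.21, adjusted p = 5.21e-06). Taken singly, H2AC19 alone was called at 24 h (adjusted p = 0.0116) and H2AC18 alone at 48 h (adjusted p = 0.00419). The log2 fold change of H2AC18 at 48 h, -2.08, moved to -2.90 without replicate 3 of the deprived cells at 48 h.

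H4C14 and H4C15 form another such pair. H4C14 was at 2.91, 1.86 and 2.41 CPM in deprived samples at 48 h and at 0.852, 1.74 and 0.642 CPM in control samples (2.22-fold higher, edgeR adjusted p = 0.0159). Joined with H4C15 the pair was at 5.28, 5.43 and 7.06 CPM in deprived samples and at 4.09, 3.25 and 3.26 CPM in control samples at 48 h. The joined pair was higher in deprived cells at 24 h (log2 0.84 ± 0.17, adjusted p = 0.000261) and at 48 h (log2 0.74 ± 0.17, adjusted p = 0.000751). It thus stayed higher at the later time, where H4C5, H4C9 and H4C12 were lower. The call of H4C5 (edgeR adjusted p = 0.0313) was lost in 6 of 19 alternatives. H4C9 passed the filter through control cells at 48 h alone, the higher group in that comparison. H4C12 held 27.72 and H4C11 11.28 estimated counts in replicate 1 of control cells at 48 h, parts of counts that point to shared reads. H2AC14 and H2AC13 likewise held 6.69 and 3.31 in replicate 1 of deprived cells at 24 h. These copies were not joined, so the calls of H4C12 and H2AC14 as single genes carry the same limit. H4C14 was also 2.85-fold lower in control cells at 48 h than at 24 h when taken singly (adjusted p = 0.00928), and the joined pair was not called there (adjusted p = 0.296). H4C14 and H4C15 each share 173 exon bases with H3C14 or H3C15 on the opposite strand. Whether the libraries kept strand is not given, and without strand the reads of such partners cannot be told apart. The same holds for H2BC18, which shares 177 exon bases with FCGR1A on the opposite strand.

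The members lie in 2 groups on the genome. On chromosome 6, between 25726063 and 27893891 (RefSeq, GRCh38), stand 55 members, of which 18 were tested. There 8 were higher and 1 lower in deprived cells at 24 h, and 1 higher and 11 lower at 48 h. On chromosome 1, between 149782689 and 149887965, stand 11 members, of which 9 were tested, with 4 higher and 0 lower at 24 h and 1 higher and 2 lower at 48 h. Over all genes tested, 28.8% were higher and 26.9% lower at 24 h, and 33.5% higher and 34.9% lower at 48 h. The 9 tested on chromosome 1 include the pairs H2AC18 and H2AC19, H3C14 and H3C15, and H4C14 and H4C15, whose copies share reads. Each copy is counted singly in the 2 of 9 lower there. That count therefore does not set 9 separate genes against the share of all genes. Tested members on both chromosomes included genes that were higher at 24 h and genes that were lower at 48 h. No test of a difference between the chromosomes was made.

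Divergent neighbours did not always share their calls. With starts within 1000 bases, 12 pairs of members point away from each other. H3C4 and H2AC7 have the same start in RefSeq, so their pairs with H2BC7 are the same stretch, listed under both names. In 4 of the 12 pairs both genes were tested. H2BC4 and H2AC6 were both higher at 24 h, while at 48 h H2BC4 was called lower and H2AC6 was not called. In the other pairs, H2BC11 was higher at 24 h and H2AC11 lower at 48 h, with 248 bases between their starts. H2BC21 was higher at 24 h and H2AC20 lower at 48 h, 236 bases apart. H2BC17 was called at both times, and H2AC17, 240 bases away, was called lower at 48 h, with an adjusted p of 0.972 in edgeR's test at 24 h. H2AC17 shares 346 exon bases with H3C12 on the same strand, so its counts are uncertain.

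Transcripts that read past the stem-loop were annotated for 16 members, of which 11 were tested. A transcript counted here if it went on for more than 100 bases after the loop. Of these 11, 5 were higher in deprived cells at 24 h, beside 28.8% of all genes tested, and 4 were lower at 48 h, beside 34.9%, which is about the share of all genes. The length in the deposited table lay between 386 and 4137 bases with a median of 509, and 15 members had over 1000 bases, 11 of them tested. Of the 51 shorter members, 16 were tested. A list of 6 members known to give polyadenylated transcripts (H1-2, H2AC6, H2BC4, H2BC5, H2BC12 and H2BC21) had 5 higher and 0 lower at 24 h, with a median log2 fold change of 0.97. At 48 h the list had 0 higher and 3 lower, with a median of -0.72. Gene counts do not separate the stem-loop and polyadenylated forms of 1 gene.

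Replication-independent and specialised histones were set beside the members. Most of them are made outside S phase or serve special sites and have polyadenylated mRNAs. Of 11 genes of this list, all tested, 4 were higher and 2 lower in deprived cells at 24 h, and 1 was higher and 9 lower at 48 h. Over all genes, 28.8% were higher and 26.9% lower at 24 h, near the shares of this list, and 33.5% higher and 34.9% lower at 48 h. The median log2 fold change of the list was 0.06 at 24 h and -0.87 at 48 h. H1-10, a linker histone, was at 115 ± 5.89 CPM in deprived cells and 84 ± 8.15 CPM in control cells at 24 h, and at 29 ± 3.1 against 130 ± 16.6 CPM at 48 h, 4.48-fold lower at the later time (edgeR adjusted p = 2.22e-13). H1-10, H2AX, H3-3B and CENPA were called higher at 24 h and lower at 48 h, as were H1-2, H2BC4 and H2BC17 among the members.

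CENPA, the H3 variant of centromeres, was at 32.3 ± 2.58 CPM in deprived cells and 21.6 ± 3.12 CPM in control cells at 24 h. At 48 h it was at 1.57 ± 0.214 CPM in deprived cells, against 27.9 ± 2.79 CPM in control cells, 17.7-fold lower (edgeR adjusted p = 8.35e-15). H2AX, whose phosphorylated protein marks DNA breaks, was at 161 ± 6.85 CPM in deprived cells and 107 ± 6.67 CPM in control cells at 24 h, and 2.5-fold lower in deprived cells at 48 h (adjusted p = 2.15e-12). H3-3A, which encodes the replacement histone H3.3, was lower in deprived cells at both times, with 106 ± 3.14 CPM against 189 ± 9.46 CPM in control cells at 24 h and 80.4 ± 4.43 against 217 ± 12.9 CPM at 48 h. H2AZ1 and H2AZ2, both genes of the variant H2A.Z, were not called at 24 h and fell at 48 h, by 0.64 ± 0.05 and 0.96 ± 0.05 on the log2 scale. MACROH2A1 was the one gene of the list called higher at 48 h, with a log2 fold change of 0.18 ± 0.05. H2AJ was lower at both times, by 0.33 ± 0.13 and 0.87 ± 0.13 on the log2 scale.

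Genes that act in the transcription, processing and decay of histone mRNA were compared too. Of 17, all tested, 8 were higher and 3 lower in deprived cells at 24 h, and 7 higher and 4 lower at 48 h, with median log2 fold changes of 0.13 and -0.05. The 11 called at each time are close to the share of all genes called, 55.6% at 24 h and 68.3% at 48 h. SLBP, the stem-loop binding protein, was at 71.8 ± 2.04 CPM in deprived cells and 60.4 ± 1.2 CPM in control cells at 24 h (1.19-fold higher, edgeR adjusted p = 0.00366). At 48 h SLBP was at 62.9 ± 4.94 CPM in deprived cells and 66.1 ± 5.54 CPM in control cells (adjusted p = 0.357). NPAT, the transcriptional coactivator, had log2 fold changes of -0.03 ± 0.11 and -0.05 ± 0.11 at the 2 times and was not called. CASP8AP2, also known as FLASH, and LSM11, both needed for 3′ processing, were not called at either time. LSM10, a subunit of the U7 particle that guides 3′ cleavage, was higher in deprived cells, at 35.3 ± 1.71 against 21.2 ± 0.527 CPM in control cells at 24 h and at 42.9 ± 2.7 against 16.4 ± 0.08 CPM at 48 h. ZNF473, a further U7-associated factor, was higher at both times (log2 0.50 ± 0.08 and 0.59 ± 0.08). ERI1, the exonuclease that trims and degrades histone mRNA ends, was lower at both times, at 71.6 ± 1.93 against 96.2 ± 3.31 CPM in control cells at 24 h and at 57.3 ± 1.72 against 109 ± 3.83 CPM at 48 h.

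Genes of S phase and DNA replication were set beside the members as well. Of 41, all tested, 12 were higher and 20 lower in deprived cells at 24 h, and 11 higher and 25 lower at 48 h, with median log2 fold changes of -0.15 and -0.46. The 12 higher at 24 h are about the 28.8% of all genes, while lower calls were at 26.9% of all genes at 24 h and 34.9% at 48 h, and higher calls at 33.5% at 48 h. CCNA2, the cyclin of S and G2 phase, was at 125 ± 4.07 CPM in deprived cells and 76.1 ± 6.46 CPM in control cells at 24 h, and at 14.2 ± 0.644 against 89.7 ± 3.11 CPM at 48 h. RRM2, the S-phase subunit of ribonucleotide reductase, was at 245 ± 4.91 CPM in deprived cells and 150 ± 10.6 CPM in control cells at 24 h, and at 57.8 ± 5.97 against 135 ± 11.3 CPM at 48 h. Both genes were called higher at 24 h and lower at 48 h, as 4 genes of the list were, while 3 were called lower at 24 h and higher at 48 h, 15 lower at both times and 6 higher at both. The 3, named after their values were seen, were the helicase subunits MCM4 (log2 -0.62 ± 0.05 at 24 h and 0.24 ± 0.06 at 48 h), MCM5 (-0.62 ± 0.07 and 0.37 ± 0.07) and MCM6 (-0.41 ± 0.06 and 0.63 ± 0.06). PCNA, the sliding clamp of replication, was lower at both times (log2 -0.37 ± 0.06 and -0.39 ± 0.06), and so was CDK2 (log2 -0.34 ± 0.07 and -0.75 ± 0.07). CCNE1 was higher at both times (log2 0.30 ± 0.10 and 0.95 ± 0.10), and CCNE2 (2.17-fold) and E2F1 (1.28-fold) were called higher at 48 h and not at 24 h. In the test of the difference between times, CCNE2 had 1.18 ± 0.28 (edgeR adjusted p = 0.00273) and E2F1 0.63 ± 0.16 (0.00577) on the log2 scale.

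Of 20 histone chaperones, all tested, 8 were higher and 6 lower in deprived cells at 24 h, and 7 higher and 9 lower at 48 h, with medians of -0.05 and 0.02. Over all genes, 28.8% were higher and 26.9% lower at 24 h, and 33.5% higher and 34.9% lower at 48 h, so the 6 lower at 24 h and the 7 higher at 48 h are near the shares of all genes. NASP, which holds soluble H3 and H4, was lower at both times (log2 -0.32 ± 0.05 and -0.87 ± 0.05). ASF1B, a carrier of new H3 and H4, was at 60.9 ± 3.84 CPM in deprived cells and 63.4 ± 3.87 CPM in control cells at 24 h, and 2.97-fold lower in deprived cells at 48 h (edgeR adjusted p = 3.65e-12). CHAF1A, the large subunit of the assembly factor CAF-1, was higher at 24 h (log2 0.32 ± 0.06) and had a log2 fold change of 0.02 ± 0.06 at 48 h. CHAF1B, its partner, was lower at 48 h (log2 -0.25 ± 0.09). Of 4 histone genes at other loci, 2 were tested and neither was called at either time, H2AW with log2 fold changes of 0.07 ± 0.11 and -0.22 ± 0.11 and H2BU1 with 0.08 ± 0.48 and -0.06 ± 0.56.

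**Figure D4:**
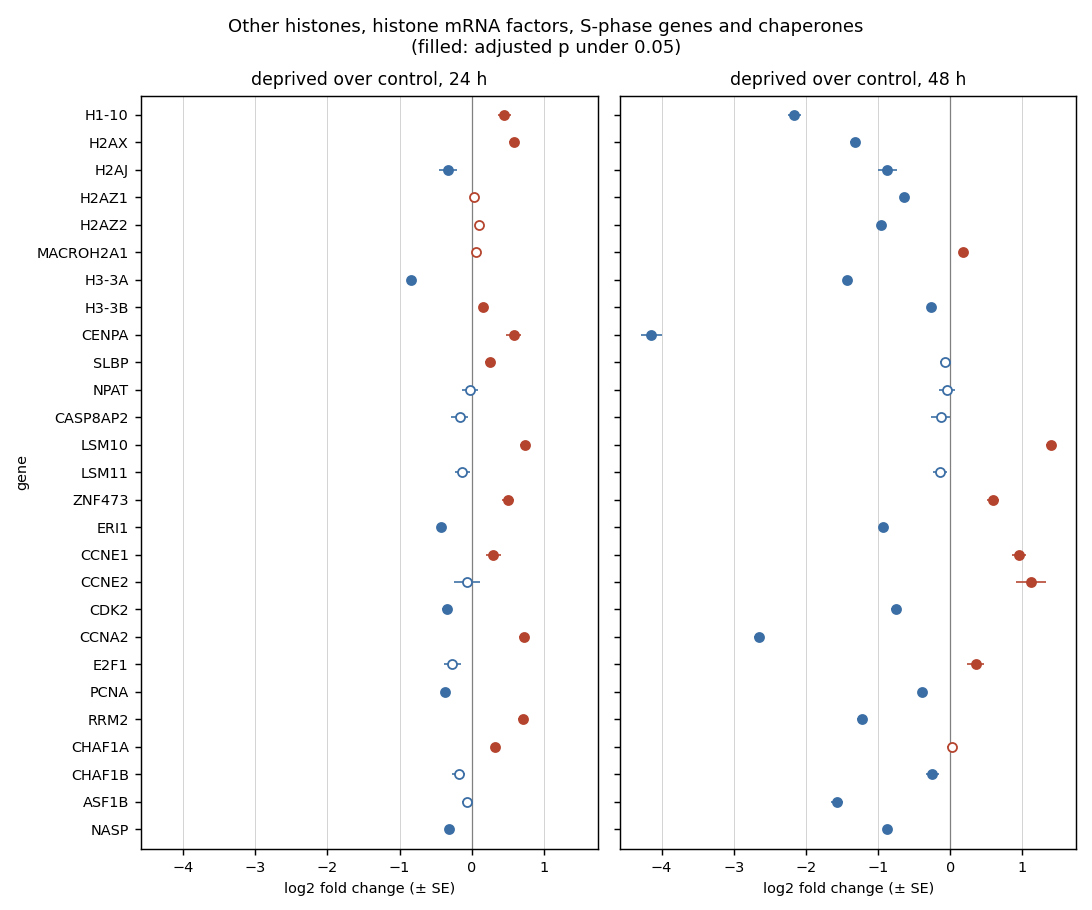
Log2 fold change of deprived over control cells (horizontal axis, with SE as bars) at 24 h and 48 h for replication-independent and specialised histones, factors of histone mRNA, S-phase genes and chaperones, with filled points for genes past the adjusted threshold. CENPA lies at -4.14 and CCNA2 at -2.65 at 48 h, while NPAT, CASP8AP2 and LSM11 have open points at both times.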

How the data were processed

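RNA was sequenced from 12 HCT116 samples, 3 in each of 4 groups taken from the sample titles. The authors deposited estimated counts per gene without normalization, with a gene length in bases. The submitters' processing notes name fastp, HISAT, RSEM and the build GRCh38. No annotation release is named. Per the labels' protocols, TRIzol total RNA was treated with DNase. Estimated counts split reads between near-identical copies. They were rounded to whole numbers. The 316 of 60987 rows without a gene name, 0.748% to 1.65% of counts, were left out.

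Genes passing filterByExpr (minimum count 10, minimum total count 15) were tested in 1 fit of 12 samples and 4 group means with edgeR 4.0.16 (glmQLFit, glmQLFTest, TMM, R 4.3.3), with 5 contrasts, Benjamini-Hochberg adjustment over 16994 genes and a threshold of 0.05. CPM use TMM-scaled library sizes. A class sum has no test. The fit was tested on simulated counts for the 2 comparisons of media. It recovered 52.5% of 1.5-fold changes at 24 h and 77.4% at 48 h, and 94.1% and 93.2% of 4-fold changes. Of the genes it called, 7.24% at 24 h and 8.29% at 48 h had not been changed, more than the threshold of 0.05 aims at. Only 51 to 80 genes were changed for each fold, drawn at random from all levels. In the data a far larger share of genes was called, and most members lie at low levels. These rates are therefore not those of the members. Depth was 19146108 to 24179533 per sample.

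The members and gene lists were chosen with earlier results of these data known. Values are given in most detail for members with the smallest adjusted p in each contrast (8 for each comparison of media, 4 for each of the other 3), the highest member of each class, and members with opposite calls, which gave 18 genes. All 27 tested members are named at least once. Other genes were a fixed set by role, of which 1 is not reported here.

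Alternatives were RLE and upper-quartile scaling, library totals alone, DESeq2 1.42.0, no filter, a mean of at least 5 CPM, a replicate block, a fit of the 2 compared groups alone and each sample left out in turn. Joining copies was chosen after seeing the data. Replicates of a group differed by more than sampling noise (chi-square per degree of freedom 2.91 to 7.69), so each was counted. Sequences were read from GENCODE release 29 transcripts and the RefSeq promoter table. Gene positions are from RefSeq, and exon overlaps from GENCODE release 29.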

Additional observations from a re-analysis of the deposited data

Results flagged for a closer look

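For 15 members the effect of deprivation differed between 48 h and 24 h in the test of the difference itself, by edgeR's adjusted p. The log2 differences, effect at 48 h minus effect at 24 h, were -3.13 for H1-2, -2.44 for H1-4, -0.46 for H2AC6, -1.43 for H2AC11, -2.47 for H2AC18 and -2.37 for H2AC19. They were -3.24 for H2BC4, -0.95 for H2BC5, -1.03 for H2BC12, -3.83 for H2BC17 and -1.61 for H2BC21. H3C10 had -2.09, H4C9 -2.68 and H3C6 0.82. H2AC20 had -7.29, a fitted value that rests on 0 counts in deprived cells at 48 h and is no bound. H2AC6 lost this call in 4 alternatives, H2AC18 in 3, H2AC19 in 5, H4C9 in 4 and H2BC21 in 1. Without replicate 1 of the deprived cells at 48 h, the difference of H4C9 was -4.17, and without replicate 3 of the same group that of H2AC18 was -3.30. Without replicate 1 of the control cells at 24 h, the fitted value of H2AC20 was -8.09. H2AC18 and H2AC19 share reads, and joined they had -2.51 ± 0.29.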

How the results depend on the processing

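Of the recomputed fold changes of members, 1410 kept their direction and side of the threshold, 80 fell short of it, 13 newly passed it and 8 changed sign, none of these 8 called. H2BC5 at 24 h had -0.04 with upper-quartile scaling and with library totals. With single samples left out, H2BC5 lay between -0.07 and 0.12 at 24 h, H2AC18 between -0.08 and 0.92, H3C10 between -0.30 and 0.21, and H4C8 at 48 h between -0.30 and 0.75. H4C14 joined with its copy had a difference between times of -0.10.

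A mean of at least 5 CPM left 5 members to test, which is why counts dropped: 3 higher at 24 h, 1 higher and 3 lower at 48 h, 4 lower in the difference, 4 lower in deprived cells over time and 0 lower in control cells over time. Upper-quartile scaling gave 1 member higher at 48 h and a log2 ratio of all members' sum at 24 h of 0.63, and library totals gave 0.62. In control cells over time, DESeq2 gave 1 lower, and no filter and a fit of the compared groups alone gave 2 higher each. Leaving out single samples gave 5 to 12 higher and 0 to 1 lower at 24 h, 0 to 3 higher and 10 to 13 lower at 48 h, and 0 to 2 higher and 1 to 3 lower in control cells over time.

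The replicate number was not used as a pairing in the main fit. Same-numbered samples deviated together with correlations of -0.064 to 0.211. Samples with different numbers were not compared in this way, so these values do not show whether the number pairs samples. With a replicate block, members called were 12 higher and 1 lower at 24 h and 2 higher and 13 lower at 48 h. All genes called were then 9631 and 11734, against 9451 and 11615 without the block. No scaling moved the median of all genes by more than 0.1. Low counts limit most members: 35 of 66 never reached 10 counts.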
